A study of Citrus x limon with 9 samples.

Results

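The 10 genes described here encode late embryogenesis abundant (LEA) proteins, a dehydrin, a desiccation-related protein and an 18 kDa seed maturation protein. They were taken as a fixed set of 10 gene identifiers, named by their best protein match, from the 22353 genes of the deposited expression table. Only 11 genes of the table carry such words in their best match, and the eleventh, the PCC13-62-like desiccation-related gene Cs9g01850, did not exceed 0.44 FPKM in any library. The libraries were made from the terminal bud and the next 5 buds of flushes of Femminello lemon (Citrus x limon) trees grafted on trifoliate orange. For every stage the lowest reported growth temperature was 23 °C, and no cold treatment of these trees is described. Buds were sampled 1 week before a water deficit (stage 1), 1 week after the deficit began (stage 2) and 1 week after irrigation was resumed (stage 3), with 3 replicates per stage. The deficit lasted 2 weeks. Per the study's methods, each replicate was collected from a group of several trees, so values of single trees were not read. Stage 1 trees had been watered to saturation every 2 days, stage 2 trees were held at reduced soil moisture, and stage 3 trees had been fully watered again and, per the study's methods, bore visible flower buds. Watered trees sampled on the later dates were not analysed here, so the effect of date and the effect of water supply cannot be told apart. A bud sample holds many cell types, and fewer cells of a type and less RNA per cell cannot be told apart.

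LEA proteins are small and very hydrophilic proteins that accumulate in seeds as they dry, and many are also made in leaves and other tissues under drought, cold or salt. They are thought to protect membranes and enzymes when water is lost. Dehydrins form one LEA group, marked by lysine-rich segments. In Arabidopsis many LEA genes are switched on by abscisic acid (ABA) through transcription factors such as ABSCISIC ACID-INSENSITIVE 5.

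The values are FPKM, that is fragments scaled by transcript length and by the mapped fragments of the library. Levels were compared between genes and between libraries on this scale, which does not correct for shifts in the make-up of a library. Other normalizations were run as alternatives. Stages were compared with limma on log2(FPKM + 1) over all 17729 genes that reached 1 FPKM in at least 3 of the 9 libraries. Calls required a Benjamini-Hochberg adjusted p under 0.05 together with a log2 fold change of 1 or more in either direction. Fold changes on this scale understate the change of genes with low values. All 10 genes passed the filter, but Cs8g07520 passed it only through its stage 1 libraries. Cs1g13160 passed it through stages 1 and 3, with no stage 2 library at 1 FPKM. Cs5g31080 passed it through stages 1 and 2, with no stage 3 library at 1 FPKM. Both stay in all counts below. The libraries were alike in summed FPKM, at 625348 to 636775, and had 19210 to 20099 genes above 0. The 12 shoot apex markers, a check of the tissue, summed to 186.9 to 198 FPKM at stage 1, 235.4 to 251.2 at stage 2 and 269.8 to 276.0 at stage 3, mostly from knotted-1-like 2-like Cs3g16460 and SHOOT MERISTEMLESS-like Cs2g02590. The single markers did not follow the sum, since at stage 2 against stage 1 the log2 fold change was positive in 3 and negative in 5 of the 8 tested, with a median of -0.39. WUSCHEL-like Cs1g25270 averaged 0.06 FPKM at stage 2 and 1.02 FPKM at stage 1. Stage 2 replicate 3 was the lowest library of its stage in 7 of the 10 genes, and the share over all genes was not computed. By estimate, 1 read was worth 1.08 times as much in it as in stage 2 replicate 1. Its median FPKM over all genes was 8.87, beside 8.28 in replicate 1 and 8.48 in replicate 2 of that stage. A link between these values was not tested.

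The summed level of the set was lower at stages 2 and 3 than at stage 1, with no overlap. The 10 genes together gave a mean of 7754 FPKM at stage 1 (SD 122), 4149 FPKM at stage 2 (SD 532) and 3392 FPKM at stage 3 (SD 636), with 3 libraries each. In the individual libraries the sum was 7662, 7892 and 7708 FPKM at stage 1, 4337, 4562 and 3549 at stage 2, and 3012, 3037 and 4126 at stage 3. It therefore stood for 1.21% to 1.26% of all FPKM in stage 1 libraries, 0.558% to 0.723% in stage 2 libraries and 0.473% to 0.649% in stage 3 libraries. The make-up also differed between stages. The 18 kDa seed maturation gene gave 59.5% to 61.4% of the sum at stage 1, 16.3% to 19.7% at stage 2 and 20.1% to 25.3% at stage 3. The Lea5 gene gave 25.5% to 27.8%, 69.3% to 71.8% and 59.7% to 68.1% at the same stages.

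**Figure D1:**
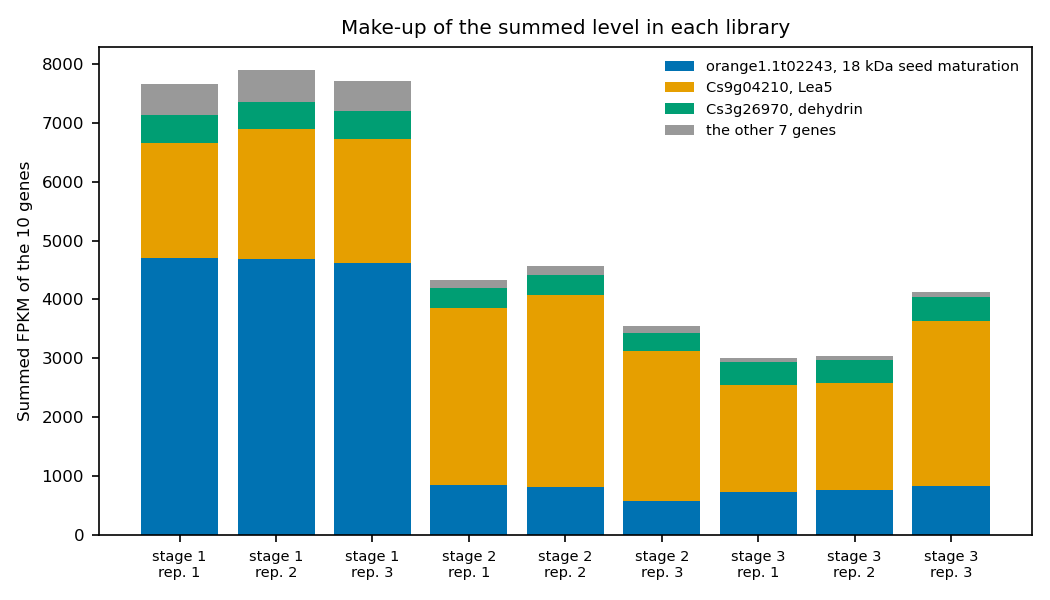
Summed FPKM of the 10 genes (y axis) in each of the 9 libraries (x axis), split into orange1.1t02243, Cs9g04210, Cs3g26970 and the other 7 genes. The stage 1 bars reach 7662 to 7892 FPKM, and no later bar exceeds 4562 FPKM.

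Between stage 2 and stage 1, limma called 5 of the 10 genes lower and none higher. Among all genes tested by limma, 7.85% were called, 4.66% lower and 3.18% higher. At an unadjusted p under 0.05, 8 of the 10 were lower and 1 was higher, beside 20.7% and 26.1% of all genes tested. A NOISeq-style probability, which ranks a difference against the spread between replicates, called 4 lower and 0 higher, beside 2.24% and 2.05% of the 22353 genes. Without Cs8g07520, limma called 4 of 9 lower. The median log2 fold change was -1.05 for the 10 genes and -0.95 without Cs8g07520, against 0.05 over all genes tested. In 8 of the 10 genes every stage 2 library lay below every stage 1 library, a pattern found in 22.2% of all genes (7 of 9 without Cs8g07520), and in 1 gene every stage 2 library lay above (27.8% of all genes).

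Between stage 3 and stage 2, limma called 1 of the 10 genes higher and 1 lower, with 4.92% and 2.54% of all genes called in these directions and 7.46% in either. At an unadjusted p under 0.05, 3 were higher and 4 lower, beside 19.8% and 25.6% of all genes. The NOISeq-style probability called 0 higher and 2 lower (orange1.1t02242 and Cs9g01250), beside 2.68% and 1.49% of the 22353 genes. The median log2 fold change was -0.13, and 0.0047 without Cs8g07520, against -0.06 over all genes. Stage 3 lay wholly above stage 2 in 2 of the genes and wholly below it in 3, patterns found in 19.9% and 26.5% of all genes. Between stage 3 and stage 1, 5 of the 10 genes were called lower and none higher, against 2.24% and 2.69% of all genes by limma (4.93% in either direction). At an unadjusted p under 0.05, 7 were lower and 0 higher, beside 18.2% and 19.7% of all genes. The NOISeq-style probability called 3 lower and 0 higher, beside 1.31% and 1.78% of the 22353 genes. Without Cs8g07520, 4 of 9 were called lower. The median log2 fold change was -1.11, and -0.95 without Cs8g07520, against 0.01 over all genes, and every stage 3 library lay below every stage 1 library in 7 of the 10 genes, or 6 of 9 without Cs8g07520 (21.4% of all genes). The 3 comparisons share libraries, so these counts are not independent of each other.

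**Figure D2:**
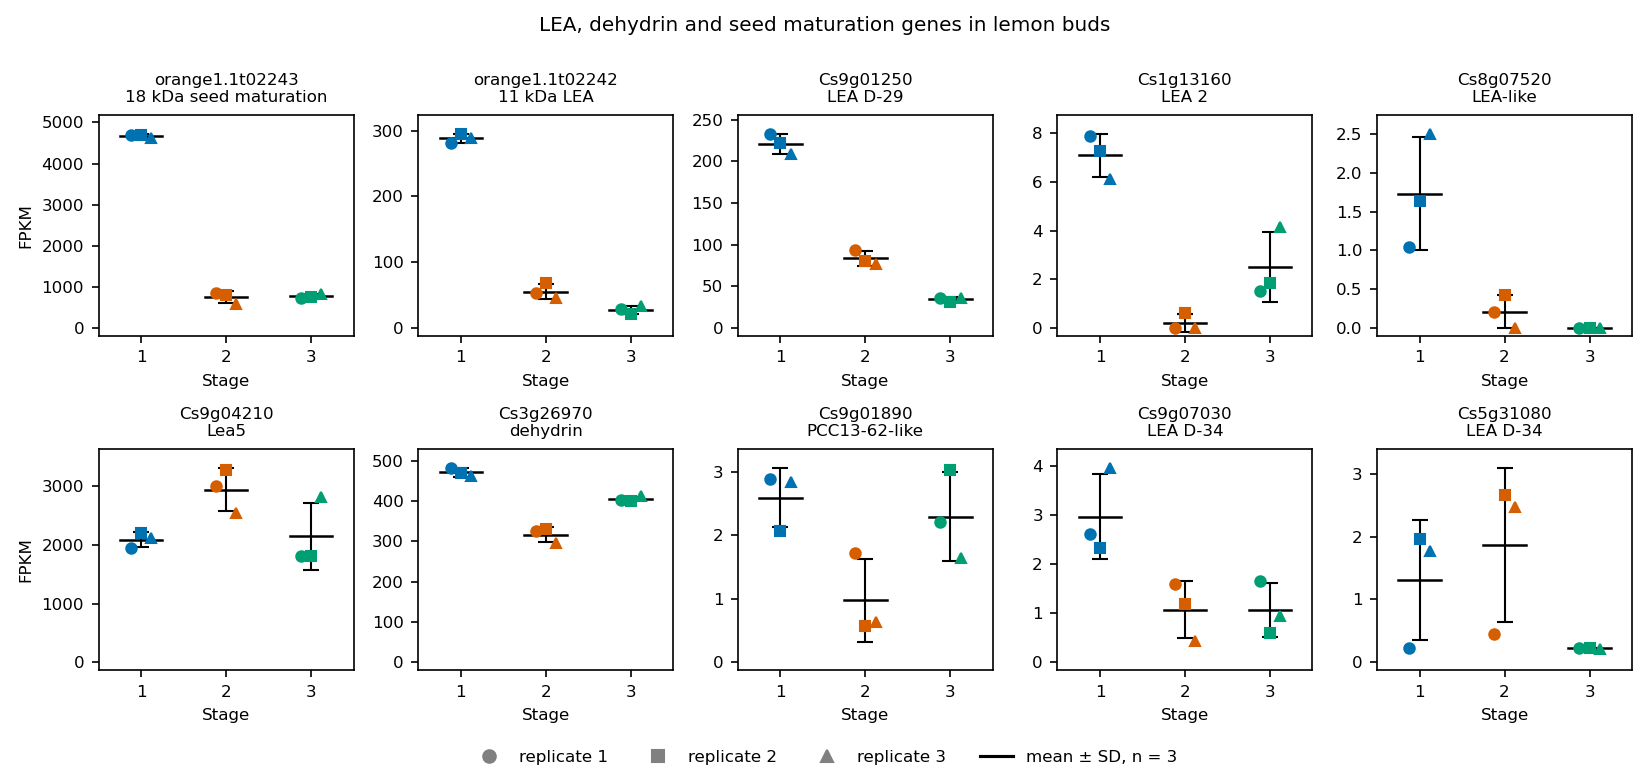
FPKM (y axis) of each of the 10 genes at stages 1, 2 and 3 (x axis). Points are libraries, with a symbol for each replicate, and the lines are the mean and SD of 3. The 5 genes of the upper row have no stage 2 or stage 3 library as high as any stage 1 library, whereas Lea5 (Cs9g04210) has its highest mean at stage 2.

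The gene with the highest level before the deficit was orange1.1t02243, which matches an 18 kDa seed maturation protein. The study describes it as a seed maturation LEA 4 protein, and proteins of this group are known from late stages of seed development. Its level was 4701, 4694 and 4611 FPKM at stage 1, 855.2, 807.0 and 578.8 at stage 2, and 728.7, 766.7 and 827.4 at stage 3. By level it ranked 5 among all genes of the table in each stage 1 library, and between 39 and 64 in the later libraries. The stage 2 mean of 747 ± 148 FPKM was 6.25 times below the stage 1 mean of 4669 ± 50.2 FPKM (SD, n = 3 each), with a log2 fold change of -2.66 ± 0.11 (SE, adjusted p = 1.9e-08 by limma). At stage 3 it averaged 774.3 ± 49.8 FPKM, and the log2 difference from stage 2 was 0.07 with a 95% interval of -0.18 to 0.32 (adjusted p = 0.67 by limma). The stages 2 and 3 overlapped, and without stage 2 replicate 3 the difference was -0.10. Against stage 1 the stage 3 value remained 6.03 times lower (log2 fold change -2.59 ± 0.11, adjusted p = 2.3e-08 by limma).

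The gene orange1.1t02242 has the neighbouring identifier and matches an 11 kDa LEA protein. How far reads of both genes could be mixed by the mapping was not tested. It was at 281, 294.5 and 288.9 FPKM at stage 1, 53.4, 68.1 and 45.1 at stage 2, and 28.3, 20.8 and 33.7 at stage 3. The 3 stages did not overlap, and each later stage was lower than the one before. Stage 2 averaged 55.5 ± 11.6 FPKM and stage 1 288 ± 6.8 FPKM, a 5.19-fold lower level (log2 fold change -2.37 ± 0.16, adjusted p = 6.5e-07 by limma). From stage 2 to stage 3 the log2 fold change was -0.99 ± 0.16 (adjusted p = 0.00064 by limma), just under the fold threshold, so this step was not called. It was called with a pseudocount of 0.1 (-1.01, adjusted p = 0.00079 by limma) or 0.01, without stage 2 replicate 1, stage 2 replicate 3, stage 3 replicate 1 or stage 3 replicate 3, and by the NOISeq-style probability. Stage 3, at 27.6 ± 6.46 FPKM, was 10.4 times below stage 1 (log2 fold change -3.36 ± 0.16, adjusted p = 5.0e-08 by limma).

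Cs9g01250, like LEA D-29 of cotton, fell in both steps. It had 232.5, 222.2 and 208.9 FPKM at stage 1, 93.8, 80.6 and 76.7 at stage 2, and 36.6, 31.7 and 35.6 at stage 3. It is the only one of the 10 genes called in all 3 comparisons with the same direction in each. Its stage 2 mean of 83.7 ± 8.97 FPKM was 2.64 times below the stage 1 mean of 221.2 ± 11.8 FPKM (log2 fold change -1.40 ± 0.08, adjusted p = 2.1e-07 by limma). Its stage 3 mean of 34.6 ± 2.57 FPKM was a further 2.42 times below stage 2 (log2 fold change -1.25 ± 0.08, adjusted p = 5.0e-07 by limma). Stage 3 was 6.39 times below stage 1 (log2 fold change -2.64 ± 0.08, adjusted p = 2.0e-09 by limma).

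Cs1g13160, which matches an LEA protein 2-like, fell at stage 2 and rose again in part at stage 3, at a much lower level than the genes above. It had 7.88, 7.27 and 6.14 FPKM at stage 1. At stage 2 it was listed at 0 in replicates 1 and 3 and had 0.62 FPKM in replicate 2, and at stage 3 it had 1.51, 1.84 and 4.14 FPKM. The log2 fold change was -2.78 ± 0.29 at stage 2 against stage 1 (adjusted p = 2.2e-05 by limma) and 1.50 ± 0.29 at stage 3 against stage 2 (adjusted p = 0.0021 by limma). Stage 3 remained below stage 1 without overlap (log2 fold change -1.28 ± 0.29, adjusted p = 0.0072 by limma). This last call depended on the pseudocount, since with 0.1 added to each FPKM the adjusted p was 0.13 and with 0.01 it was 0.42. Stage 3 replicate 3 was the highest of its stage for this gene, and the NOISeq-style probability called only the stage 2 difference from stage 1.

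The LEA-like gene Cs8g07520 was near the limit of detection. It had 1.05, 1.64 and 2.5 FPKM at stage 1, 0.21, 0.42 and 0 at stage 2, and was listed at 0 in the 3 stage 3 libraries. In this gene all values above 0 were whole multiples of 0.21 FPKM after allowance for the depth of the library, within 0.033 of a whole number. If this step is 1 read, the stage 1 libraries held about 5, 8 and 12 reads and the stage 2 libraries 1, 2 and 0. The gene was called lower at stage 2 (log2 fold change -1.15 ± 0.28, adjusted p = 0.0066 by limma) and at stage 3 (-1.41 ± 0.28, adjusted p = 0.0027 by limma) against stage 1. The filter on low values kept it only because of stage 1, and it was not tested when any stage 1 library was left out. With a pseudocount of 0.01 the stage 2 call was lost (adjusted p = 0.22). Stages 2 and 3 overlapped and were not told apart (adjusted p = 0.50 by limma).

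Lea5 (Cs9g04210) had its highest level at stage 2. Lea5 belongs to a LEA group known from citrus leaves under salt and drought and from cotton seeds, and its Arabidopsis relative is found in mitochondria. Its level was 1951, 2196 and 2121 FPKM at stage 1, 3006, 3272 and 2549 at stage 2, and 1810, 1811 and 2811 at stage 3. All stage 2 libraries were higher than all stage 1 libraries, and by level it ranked 7, 5 and 9 among all genes in stage 2 replicates 1, 2 and 3. The stage 2 mean was 2942 ± 366 FPKM and the stage 1 mean 2090 ± 125 FPKM (SD, n = 3 each). The log2 fold change of 0.49 ± 0.15 had an adjusted p of 0.023 by limma and a 95% interval of 0.16 to 0.81, which lies below the fold threshold of 1. At stage 3 it averaged 2144 ± 577 FPKM, 0.48 ± 0.15 lower than stage 2 on the log2 scale (adjusted p = 0.026 by limma), with overlap. The overlap came from stage 3 replicate 3, the only stage 3 library above 1811 FPKM. Against stage 1 the stage 3 log2 difference was 0.01 with a 95% interval of -0.32 to 0.33, and without stage 3 replicate 3 it was -0.20.

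The dehydrin Cs3g26970 differed between stages by small amounts with small errors. It had 481.1, 469.8 and 460.4 FPKM at stage 1, 324.7, 329.2 and 295.7 at stage 2, and 402.7, 400.3 and 411.3 at stage 3. The stages did not overlap, stage 2 being the lowest and stage 3 intermediate. The stage 2 mean of 316.5 ± 18.2 FPKM lay under the stage 1 mean of 470.4 ± 10.4 FPKM (log2 fold change -0.57 ± 0.05, adjusted p = 3.6e-06 by limma). The stage 3 mean of 404.7 ± 5.8 FPKM lay above that of stage 2 (log2 fold change 0.36 ± 0.05, adjusted p = 0.00015 by limma) and under that of stage 1 (-0.22 ± 0.05, adjusted p = 0.0060 by limma). None of these differences reached the fold threshold, and the 95% interval at stage 2 against stage 1 was -0.68 to -0.47.

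The remaining 3 genes had stage means under 3 FPKM. Cs9g01890 matches PCC13-62, a desiccation-related protein first known from a resurrection plant. It had 2.88, 2.06 and 2.84 FPKM at stage 1, 1.72, 0.57 and 0.63 at stage 2, and 2.20, 3.03 and 1.64 at stage 3. If the step between its values is 1 read, they correspond to about 15, 11 and 15 reads, then 9, 3 and 3, then 11, 16 and 9. Stage 2 was below stage 1 without overlap, but the log2 fold change of -0.90 ± 0.26 (adjusted p = 0.019 by limma) was under the threshold. Stage 3 overlapped stage 2 (0.76 ± 0.26, adjusted p = 0.042 by limma). With a pseudocount of 0.1 both steps passed the threshold, at -1.47 and 1.27.

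Cs9g07030 and Cs5g31080 both match LEA D-34, a seed maturation type of LEA protein, and had different patterns. Cs9g07030 had 2.60, 2.33 and 3.95 FPKM at stage 1, 1.59, 1.19 and 0.44 at stage 2, and 1.66, 0.59 and 0.95 at stage 3. Both later stages lay below stage 1 without overlap, with log2 fold changes of -0.95 ± 0.29 at stage 2 (adjusted p = 0.022 by limma) and -0.95 ± 0.29 at stage 3 (adjusted p = 0.031 by limma), short of the threshold. With a pseudocount of 0.1 the stage 2 fold change was -1.50 and was called. If its step is 1 read, its values correspond to about 45 reads over the 3 stage 1 libraries, 16 over stage 2 and 16 over stage 3.

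Cs5g31080 had 0.22, 1.96 and 1.77 FPKM at stage 1, 0.45, 2.67 and 2.47 at stage 2, and 0.23, 0.22 and 0.21 at stage 3. Replicate 1 was well below replicates 2 and 3 at both stages 1 and 2, and the 3 stage 3 libraries were alike. If its step is 1 read, these are roughly 1, 9 and 8, then 2, 12 and 10, and then 1 in each, within 0.153 of whole numbers. Stage 3 lay below stage 2 without overlap (log2 fold change -1.12 ± 0.41), with an adjusted p of 0.055 by limma, so the gene was not called. The stage 2 and stage 1 difference of 0.29 had a 95% interval of -0.61 to 1.2.

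**Figure D3:**
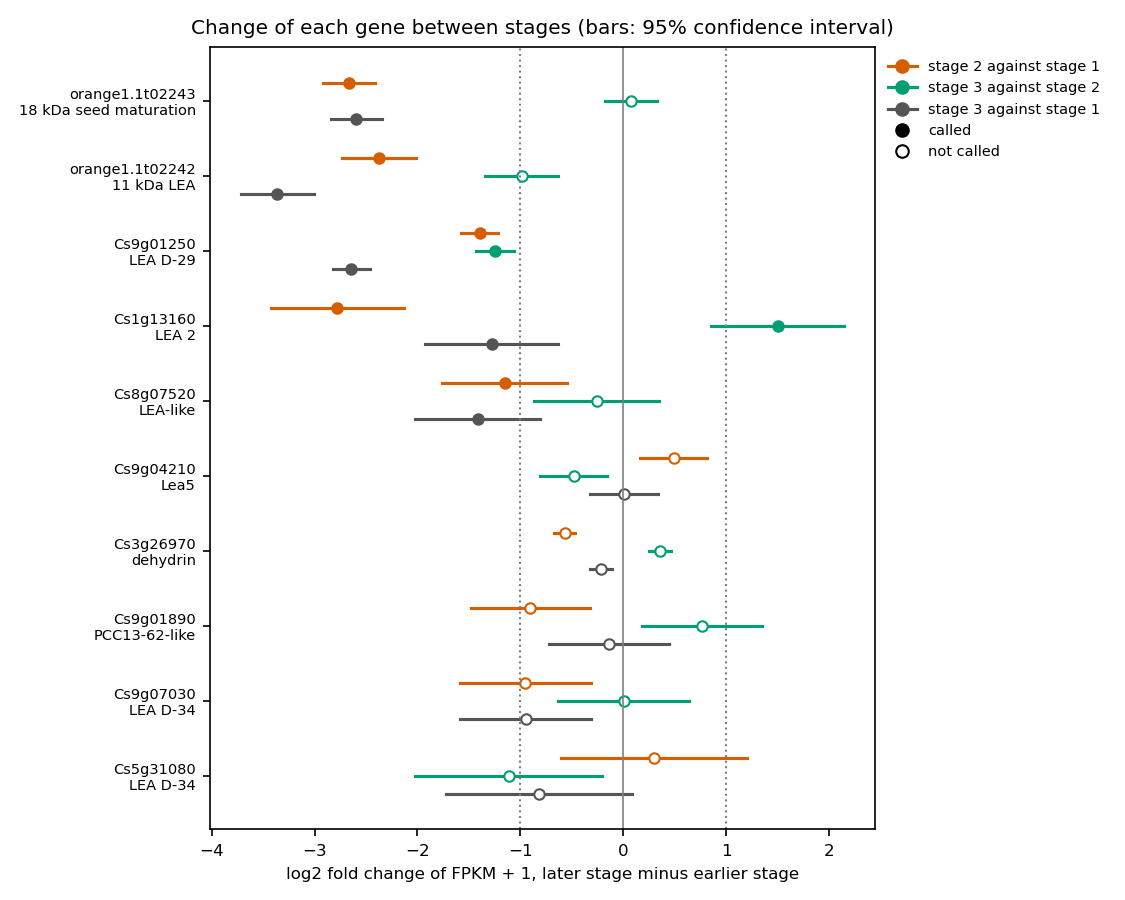
log2 fold change of FPKM + 1 (x axis, later minus earlier stage) of each of the 10 genes (y axis) in the 3 comparisons, with 95% confidence intervals. Filled points were called, and the dotted lines mark the fold threshold of 1. The 5 genes at the top were called lower at stage 2 and at stage 3 against stage 1, and Lea5 lies above 0 at stage 2.

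Other genes of seeds and of the response to drying were read from the same fit. Genes entered these lists through words of their protein match, and none of the 10 genes is in them. For the counts in these lists and in the tissue markers below, the shares of all genes tested are the measure. At stage 2 against stage 1 limma called 4.66% lower and 3.18% higher. These shares were 2.54% and 4.92% at stage 3 against stage 2, and 2.24% and 2.69% at stage 3 against stage 1. The shares at an unadjusted p and by the NOISeq-style probability are those given above. Of 6 tested genes for seed regulators and seed stores, such as oil body proteins and storage globulins, 1 was called lower at stage 2 against stage 1 and none higher (median log2 fold change -0.70). That gene, the oil body protein oleosin 18.2 kDa-like (Cs2g27550), averaged 0.897 ± 0.143 FPKM at stage 2 and 6.17 ± 0.505 FPKM at stage 1 (log2 fold change -1.92 ± 0.24, adjusted p = 7.4e-05 by limma). It rose at stage 3, to 6.50 ± 2.47 FPKM (log2 fold change 1.93 ± 0.24 against stage 2, adjusted p = 7.5e-05 by limma). At an unadjusted p under 0.05, 1 of the 6 was higher and 4 lower at stage 2 against stage 1. The higher one, leafy cotyledon 1-like Cs2g01680, averaged 1.63 FPKM at stage 2 and 0.733 FPKM at stage 1 (log2 fold change 0.60, adjusted p = 0.091 by limma). Oleosin 1-like orange1.1t03751 averaged 22.3, 21.3 and 21.4 FPKM at stages 1, 2 and 3 and was not called. At stage 3 against stage 1, 3 of the 6 were called lower and none higher. These were the storage protein relative vicilin-like Cs1g23800 (-1.49), peroxygenase 1-like Cs9g09370 (-1.10) and probable peroxygenase 4-like Cs2g17270 (-1.01, log2 fold changes).

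The raffinose family comprises genes for enzymes of raffinose and stachyose, sugars that accumulate beside LEA proteins in drying seeds. Of 9 tested, 2 were called lower and 1 higher at stage 2 against stage 1, and the median log2 fold change was -0.35. Galactinol-sucrose galactosyltransferase 5-like (Cs2g27610) and stachyose synthase-like (orange1.1t01707) fell, with log2 fold changes of -1.35 and -1.23, and galactinol-sucrose galactosyltransferase 1-like (Cs4g07840) rose by 1.08. None was called by limma at stage 3 against stage 2, where 2 were higher and 3 lower at an unadjusted p under 0.05 and the NOISeq-style probability called 0. At stage 3 against stage 1, 2 of the 9 were called lower and none higher. These were Cs9g12460 (79.2 ± 3.72 FPKM at stage 3 and 206 ± 5.14 FPKM at stage 1, log2 fold change -1.37) and orange1.1t01707 (-1.2).

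Of 8 other dehydration markers, such as RD22-like, none was called by limma at stage 2 against stage 1, and the median log2 fold change was 0.22. At an unadjusted p under 0.05, 3 were higher and 2 lower, and the NOISeq-style probability called 0. Low-temperature-induced 65 kDa protein-like (Cs9g17250), whose Arabidopsis relative responds to ABA and drought, was the only one called at stage 3 against stage 1. It had 155.3, 137.8 and 129.6 FPKM at stage 3 and 318.1, 315.1 and 316.9 FPKM at stage 1 (log2 fold change -1.17 ± 0.06, adjusted p = 1.0e-07 by limma). In that comparison 6 of the 8 log2 fold changes were positive and 2 negative, with a median of 0.07. At an unadjusted p under 0.05, 3 were higher and 2 lower. The higher ones were Cs2g03960 (0.93), orange1.1t00728 (0.63) and Cs3g14880 (0.20, log2 fold changes), all short of the fold threshold. The other lower one was RD22-like Cs4g19980 (-0.72).

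Among 26 tested genes of ABA synthesis and signalling, limma called 3 lower and 1 higher at stage 2 against stage 1. The median log2 fold change was 0.08. Many genes of this list match zeaxanthin epoxidase, so its median does not stand for ABA signalling alone. The ABA-degrading enzymes abscisic acid 8'-hydroxylase 4-like (Cs8g05940) and 1-like (Cs6g19380) fell, with log2 fold changes of -3.26 and -1.22. Cs6g14970, an ABSCISIC ACID-INSENSITIVE 5-like factor, also fell (1.44 ± 1.15 FPKM at stage 2, 4.52 ± 0.946 FPKM at stage 1, log2 fold change -1.26 ± 0.37, adjusted p = 0.019 by limma). The other tested ABSCISIC ACID-INSENSITIVE 5-like genes were not called and went both ways. Their log2 fold changes were 0.51 in Cs2g28995, 0.20 in Cs3g06870, -0.21 in Cs8g06020, -0.16 in Cs3g23480 and -0.42 in Cs6g16070. Cs2g28995 averaged 57.4 FPKM at stage 2 and 40.4 FPKM at stage 1, without overlap (adjusted p = 0.0046 by limma). The ABA receptor PYL2-like (Cs1g18470) rose by 1.34. At stage 3 against stage 2, both hydroxylase genes rose (1.25 for Cs8g05940 and 2.35 for Cs6g19380). The abscisic stress-ripening genes Cs3g21500 and orange1.1t05396, which encode small hydrophilic proteins, fell (-1.63 and -1.15). At stage 3 against stage 1, Cs8g05940 (-2.01), Cs3g21500 (-1.58) and Cs6g14970 (-1.12) were lower and Cs6g19380 was higher (1.13).

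**Figure D4:**
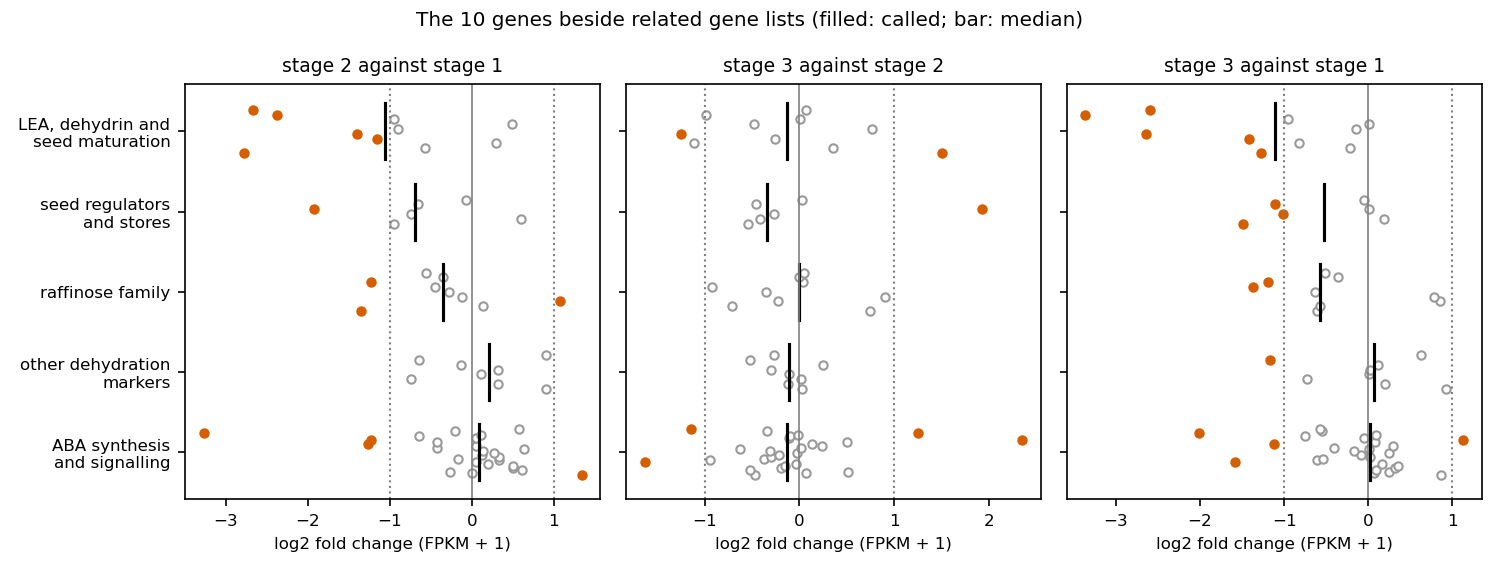
log2 fold change of FPKM + 1 (x axis) of single genes in the set of 10 and in 4 related lists (y axis), for the 3 comparisons. Filled points were called and vertical bars are list medians. At stage 2 against stage 1 the medians are -1.05 for the set of 10, -0.70 for seed regulators and stores and 0.08 for ABA genes.

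A pair of further genes is described in the study's table of changed genes as seed maturation or LEA proteins, though their best match in the deposited table is uncharacterized. They were listed there because they had changed in these libraries, so their direction is no independent evidence. Cs9g02390, described as seed maturation PM36, had 7.03 ± 0.320 FPKM at stage 2, 5.71 ± 0.429 at stage 3 and 15.7 ± 1.53 at stage 1, and was called lower at both later stages (log2 fold changes -1.05 and -1.31 against stage 1). Cs5g35120, described as a group 9 LEA protein, was not called in any comparison, and its log2 fold change at stage 3 against stage 1 was -0.99 ± 0.31 (adjusted p = 0.037 by limma).

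Markers of other tissues also moved between the stages. Of 7 tested leaf markers, 3 were called higher at stage 2 and 4 at stage 3 against stage 1, and none lower. All 8 together summed to 3172 to 3876 FPKM in stage 2 libraries, 3893 to 4617 FPKM in stage 3 libraries and 2013 to 2067 FPKM in stage 1 libraries, and 1 of them averaged under 1 FPKM. Chlorophyll a-b binding Cs2g03780 weighed heavily in this sum, with means of 812, 1750 and 2357 FPKM at stages 1, 2 and 3. The rubisco small chain Cs6g18680 averaged 875, 964 and 1020 FPKM and was not called. At stage 3 against stage 2 none of the 7 was called, and 3 log2 fold changes were positive and 4 negative. The floral organ list was found by words, so it also holds agamous-like matches such as AGL19-like and AGL61-like genes. It therefore does not stand for floral organ genes alone. Of its 14 tested genes, 1 was called higher and 1 lower at stage 2 against stage 1. The higher one, agamous-like AGL16-like Cs3g16896, had 1.3, 2.43 and 1.77 FPKM at stage 2 and at most 0.68 FPKM in any other library, so it passed the filter only through stage 2, where it is high. The lower one, DEFICIENS-like Cs3g25600, averaged 2.32 FPKM at stage 2 and 5.82 FPKM at stage 1 (log2 fold change -1.02, adjusted p = 0.011 by limma). At stage 3 against stage 2, SEPALLATA 1-like Cs7g11800 was called higher (1.30, adjusted p = 0.0039 by limma) and Cs3g16896 lower (-1.03). Cs7g11800 averaged 3.66 FPKM at stage 2 and 9.76 FPKM at stage 3. In that comparison 10 of the 14 log2 fold changes were positive and 4 negative. None of the 14 was called at stage 3 against stage 1 by limma (1 lower at an unadjusted p under 0.05, and 0 by the NOISeq-style probability). All 23 in the table summed to 149.96 to 173 FPKM at stage 2, 152 to 169.3 FPKM at stage 3 and 168 to 184.8 FPKM at stage 1, and 10 averaged under 1 FPKM. Most of this sum came from AGL19-like Cs5g10050, which averaged 114 FPKM at stage 2, 99.0 FPKM at stage 3 and 122 FPKM at stage 1. The part of these shifts in the LEA values was not tested.

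The genes whose profile over the 9 libraries was most like that of Lea5, the gene of the set with the highest mean, were Cs2g15190 (a hypothetical protein, r = 0.971), Cs8g13740 (pathogenesis-related protein PR-4A, r = 0.944) and Cs1g14510 (MAR-binding filament-like protein, r = 0.944). These are Pearson's r of log2(FPKM + 1), over 9 libraries that share their stages, and are the 3 highest of 17719 genes. Cs2g15190 had 49.98 FPKM in stage 3 replicate 3 and 35.3 and 36.6 FPKM in the other two stage 3 libraries, the same split as Lea5. For Cs1g13160, the called gene with the largest fold change at stage 2, they were Cs2g17250 (r = 0.995), Cs9g07830 (r = 0.983) and Cs4g17095 (r = 0.983), all matched to hypothetical proteins.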

How the data were processed

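Buds of 9 lemon samples, 3 per stage, were sequenced. The values are FPKM per gene and library with 2 decimals, as deposited by the authors. Before that, the FASTX-Toolkit had served for quality filtering and BWA for mapping, with sweet orange as the reference genome. For tool versions and the read counter the entry is: not given in the sources used here. The study called genes with NOISeq. The members and lists were chosen with earlier results of these data known.

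FPKM were used as deposited. limma 3.58.1 with its trend option (R 4.3.3) was fitted to log2(FPKM + 1) with 1 mean per stage and no covariate, over genes of at least 1 FPKM in at least 3 libraries, and p-values were adjusted over all of them. The fit was tested on simulated data. Groups came from the sample titles. Named genes are the 10 members, up to 6 called genes per list (those with the largest absolute fold change) and the 3 genes most like each of 2 members. Markers outside this rule, and the values of single replicates pointed out, were chosen after values were seen.

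Depth in reads is not part of FPKM. The study gives only an approximate number of clean reads per replicate, and the estimates below were not set against it. The relative worth of 1 read per library was taken from the commonest ratio of low values (0.2 to 1.2 FPKM) to stage 2 replicate 1, and lay between 0.955 and 1.08. For the 5 low genes the values were then whole multiples of a common step, within 0.2 of a whole number, and the estimated reads are those multiples. No estimate is printed for Cs1g13160, which had the largest deviation (0.157) and the highest multiples (up to 38). Cs5g31080 had nearly as large a deviation (0.153), so its estimates are rough. The step of each gene was tuned within a small range to lessen the deviation, and that it equals 1 read was not tested. SD and SE cover the spread between samples only. Alternatives were other normalizations, filters, pseudocounts, thresholds, sets of libraries, a replicate block and a NOISeq-style probability. Figures were drawn with Python 3.11.15 and matplotlib 3.10.9. Protein and promoter sequences were not used here.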

Additional observations from a re-analysis of the deposited data

How the results depend on the processing

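The 12 calls in the set kept their direction under every alternative that gave a value, and among the alternatives of the limma fit a call was lost 3 times: Cs8g07520 at stage 2 against stage 1 with a pseudocount of 0.01, and Cs1g13160 at stage 3 against stage 1 with pseudocounts of 0.1 and 0.01. Cs8g07520 was not tested without any one stage 1 library or with a filter of 5 FPKM. Of the 18 differences not called, 7 were called under some alternative. The count at stage 3 against stage 2, 2 as reported, was 4 with pseudocounts of 0.1 and 0.01. With no fold threshold the counts were 9 at stage 2 against stage 1 and 6 at stage 3 against stage 2, and 6800, 6390 and 4845 of all genes passed at stage 2 against stage 1, stage 3 against stage 2 and stage 3 against stage 1, where 1391, 1322 and 874 were called. The NOISeq-style probability called 3 genes at stage 3 against stage 1, and 4 of the 12 calls were lost with it: Cs8g07520 at stages 2 and 3 against stage 1, and Cs1g13160 at stage 3 against stage 2 and against stage 1. With any 1 library left out there were 4 to 7, 2 to 5 and 4 to 6 called genes at stage 2 against stage 1, stage 3 against stage 2 and stage 3 against stage 1, and the count of 5 at stage 3 against stage 2 came without stage 2 replicate 1. Same-numbered libraries did not deviate together (correlations of -0.14 to 0.02 over 13333 genes), so the numbers were not taken as pairs. A replicate block gave 5, 3 and 5 called genes in the set and 1390, 1319 and 872 in all, and added only Cs5g31080 at stage 3 against stage 2 (adjusted p = 0.026 by limma). Some uncalled log2 differences changed sign. For Cs9g07030 at stage 3 against stage 2 it was -0.0985 with quantile normalization and -0.24 to 0.19 with 1 library left out. For Cs9g04210 at stage 3 against stage 1 it was -0.067 with quantile normalization, -0.0328 with median scaling and -0.20 to 0.11 with 1 library left out. Leaving out 1 library gave -0.12 to 0.73 for Cs5g31080 at stage 2 against stage 1, -0.10 to 0.18 for orange1.1t02243 at stage 3 against stage 2 and -0.30 to 0.0075 for Cs9g01890 at stage 3 against stage 1. Without both stage 2 replicate 3 and stage 3 replicate 3, a setting chosen after seeing the data, these were -0.21 for Cs9g07030, -0.20 for Cs9g04210, -0.15 for orange1.1t02243 and 0.0075 for Cs9g01890, and the counts were 5, 3 and 5. The causes were not tested. Genes under 3 FPKM had few reads by the estimate above, and how far depth limits their differences was not tested.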
